A study of Mus musculus with 8 samples.

Results

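The genes described here encode 10 collagen chains that do not form the main cartilage fibril. They are the 3 chains of type VI collagen (Col6a1, Col6a2 and Col6a3), the 2 chains of type VIII (Col8a1 and Col8a2), 4 fibril-associated collagens (Col12a1, Col14a1, Col16a1 and Col22a1) and 1 transmembrane collagen (Col25a1). They were chosen by gene symbol, 10 of the 54658 symbols in the count table, with earlier results of these data known. The table came from RNA-Seq of primary articular chondrocytes, the cells that make cartilage matrix, freed by collagenase from femoral head cartilage of wild-type mice aged 3 weeks. The sex and strain were not given in the sources used here. Cultures received vehicle (n = 4) or IL-1β, a proinflammatory cytokine of the arthritic joint, at 1 ng/mL for 24 h (n = 4). The comparison thus asks what this cytokine does to cultured wild-type chondrocytes. The labels number the samples without saying that they came from separate animals or cultures, and the p-values then measure the spread between these samples, which may be technical.

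All collagens carry stretches of Gly-X-Y triplets through which 3 chains wind into a triple helix. Type VI chains assemble into beaded microfilaments that surround each chondrocyte as its pericellular matrix, the layer through which the cell senses load. Types XII, XIV, XVI and XXII, together with type IX, are built of short helices interrupted by other domains and sit on the surface of fibrils or at tissue borders. Type VIII forms sheet-like networks, best known under the corneal endothelium and in vessel walls, and type XXV is anchored in the cell membrane and was first described in the brain.

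Total counts were 10992355 to 17456063 per sample, and 14404 genes with a CPM (library-scaled count) above 1 in at least 4 samples entered the test. Cell identity was checked with marker lists. The 6 chondrocyte markers summed to 13960 to 14500 CPM in the vehicle samples and 3503 to 3864 CPM in the IL-1β samples. All 6 fell by more than 2-fold, beside 2.35% of all genes tested. Their fall runs alongside every result below, and its part in them was not tested. In a bulk sample fewer cells of a type and less RNA per cell cannot be told apart. The 6 fibroblast and tenocyte markers summed to 64.7 to 66.9 CPM against 78.3 to 82.1 CPM with IL-1β, and 3 of 6 passed the filter. Of these 3, Pdgfra rose from 27.6 to 41.2 CPM. Scx (log2 fold change 0.12) and Mkx (-0.36) were not called, so the sum does not stand for the list. The 4 osteoblast markers summed to 84.0 to 94.9 CPM against 25.9 to 31.4 CPM with IL-1β. The 5 macrophage and leukocyte markers summed to 11.5 to 12.6 CPM and 15.9 to 18.9 CPM with IL-1β, of which Cd68 made up most. Cd68 rose (log2 fold change 0.67) whereas Lyz2 fell (-0.60, edgeR, adjusted p = 0.0364). Ptprc, which marks all leukocytes, stayed below the filter. None of the 4 endothelial and none of the 4 skeletal muscle markers passed the filter. The part of other cells in the results was not tested.

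The chains differ in build (lengths were computed from the longest annotated coding transcript with a 3′ UTR, GENCODE vM21). Col6a1 had 1025 residues and Col6a2 1034, with 39.8% of aligned residues identical, whereas Col6a3 was the long chain with 2677 residues and ended in a match to the Kunitz inhibitor pattern from residue 2649. The type VI chains carried 300, 330 and 330 residues in uninterrupted Gly-X-Y runs of 10 or more triplets. Col8a1 (744 residues) and Col8a2 (699 residues) were 58.2% identical, the most of the 3 pairs aligned (these, Col6a1 with Col6a2 and Col12a1 with Col14a1), and each had 381 residues in such runs. Col12a1 (3065 residues) and Col14a1 (1798 residues) were 48.9% identical and both held 234 residues in runs near the C-terminus. Col16a1 had the most broken helix, with 14 runs, Col22a1 the longest single run, with 113 triplets, and Col25a1 was the chain with the greatest part in runs, 71.2% of 666 residues.

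**Figure D1:**
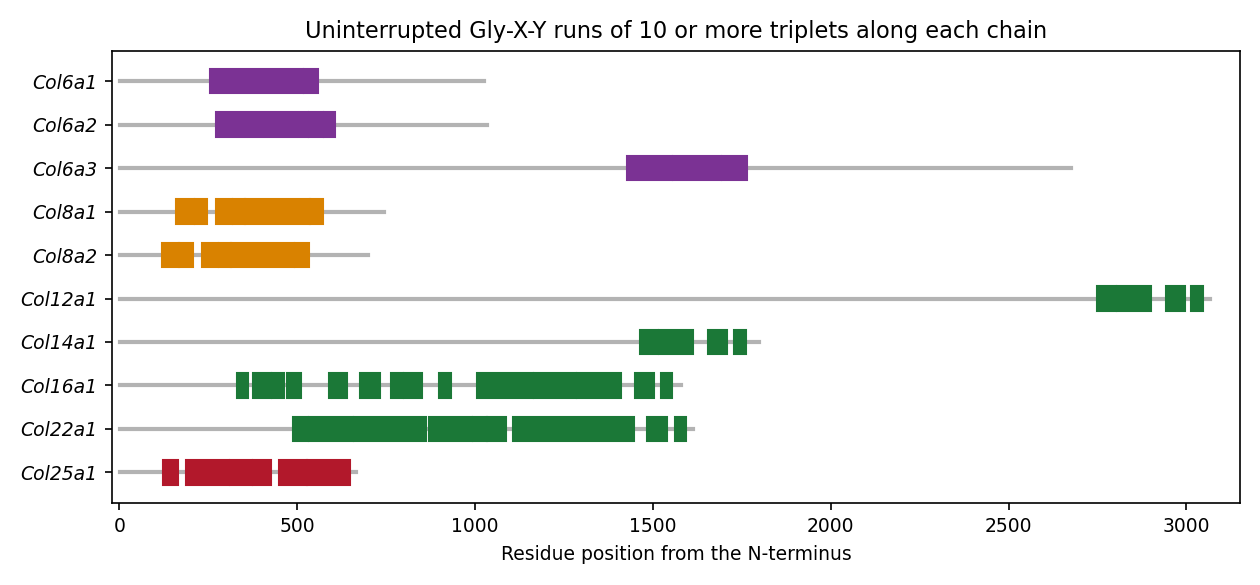
Map of the 10 chains, with residue position from the N-terminus on the horizontal axis. Grey lines are whole chains and coloured boxes are Gly-X-Y runs of 10 or more triplets, for type VI (purple), type VIII (orange), fibril-associated (green) and transmembrane (red) chains; the helix sits mid-chain in type VI and near the C-terminus in Col12a1 and Col14a1.

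Col6a1 (chr10:76708792-76726168) and Col6a2 (chr10:76595762-76623630) lie on the minus strand with 85161 bases between them, and Col6a3 lies on chr1:90765923-90843971, also on the minus strand (GRCm38). All type VI chains fell, by unequal amounts, and the upstream windows of Col6a2 and Col6a3 are shown, while that of Col6a1 was searched but is not. The windows of Col8a1 and Col8a2 are shown because only Col8a2 of this pair was called lower. Each window shown runs 5′ to 3′ from 250 to 11 bases before the RefSeq start (GRCm38.p6). Capitals mark GGGCGG, a letter string bound by SP1-type factors, or its reverse complement.
Col6a2 (chr10:76623641-76623880, minus strand): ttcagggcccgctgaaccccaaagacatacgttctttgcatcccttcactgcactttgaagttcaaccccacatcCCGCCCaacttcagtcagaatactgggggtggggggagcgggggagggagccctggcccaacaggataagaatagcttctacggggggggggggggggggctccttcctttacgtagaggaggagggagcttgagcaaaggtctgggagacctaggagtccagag
Col6a3 (chr1:90843982-90844221, minus strand): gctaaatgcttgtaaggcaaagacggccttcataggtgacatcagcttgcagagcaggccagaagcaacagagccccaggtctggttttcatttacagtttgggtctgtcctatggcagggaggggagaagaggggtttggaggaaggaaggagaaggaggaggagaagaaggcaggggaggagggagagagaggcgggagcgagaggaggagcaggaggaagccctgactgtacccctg
Col8a1 (chr16:57754748-57754987, minus strand): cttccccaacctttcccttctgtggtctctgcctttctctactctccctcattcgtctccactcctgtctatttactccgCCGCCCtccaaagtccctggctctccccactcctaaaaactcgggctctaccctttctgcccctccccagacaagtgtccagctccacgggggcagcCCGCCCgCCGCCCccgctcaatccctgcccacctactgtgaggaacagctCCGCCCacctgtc
Col8a2 (chr4:126286544-126286783, plus strand): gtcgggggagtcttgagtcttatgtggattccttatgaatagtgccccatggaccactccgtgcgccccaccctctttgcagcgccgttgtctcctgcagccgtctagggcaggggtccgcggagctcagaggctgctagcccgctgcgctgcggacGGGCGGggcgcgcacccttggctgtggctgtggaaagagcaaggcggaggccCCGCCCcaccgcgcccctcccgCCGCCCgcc
RefSeq gave windows for 7 of the 10 genes, and 5 of 7 held GGGCGG, with 1 match in Col6a2, 4 in Col8a1, 3 in Col8a2, 1 in Col16a1, 2 in Col25a1 and none in Col6a1 and Col6a3, beside 31.3% of 32851 RefSeq windows of this length that held it on either strand. The 7 windows held 55.4% to 75.4% G and C, against a median of 52.1% over all windows. GGGCGG is made of these letters only, so the shares are not those of windows alike in composition. TATAAA and the NF-κB consensus matched in none of the 7 windows, and were in 12.1% and 3.75% of all windows, respectively. TGANTCA, the AP-1 string, was in 6.58% of all windows and matched 1 time, in Col6a1. The RefSeq start of Col6a1 lies 124 bases inside the GENCODE transcript, so this match is before the RefSeq start but within the gene as annotated by GENCODE.

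The results below turn first on type VI. Col6a1 stood at 2073, 2107, 2084 and 2097 CPM in the vehicle samples and at 1136, 1196, 1273 and 1273 CPM with IL-1β. Every IL-1β sample was below every vehicle sample, and the mean fell 1.71-fold, from 2090 ± 14.9 to 1219 ± 66.6 CPM (SD, n = 4). Col6a2, the neighbouring gene, gave 1725, 1751, 1734 and 1762 CPM with vehicle and 849, 924, 979 and 978 CPM with IL-1β. It fell 1.87-fold without overlap between the groups. Col6a3 gave 1855, 1868, 1874 and 1906 CPM with vehicle and 713, 730.5, 737 and 751 CPM with IL-1β. This was the deepest fall of the type VI chains, 2.56-fold, with a log2 fold change of -1.36 (SE 0.03, adjusted p = 1.92e-25 by edgeR's quasi-likelihood test). The log2 fold changes were -0.78 for Col6a1 (SE 0.03, adjusted p = 3.29e-18) and -0.90 for Col6a2 (SE 0.03, adjusted p = 9.16e-19), so these chains passed the adjusted p threshold of 0.05 but not the 2-fold threshold.

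**Figure D2:**
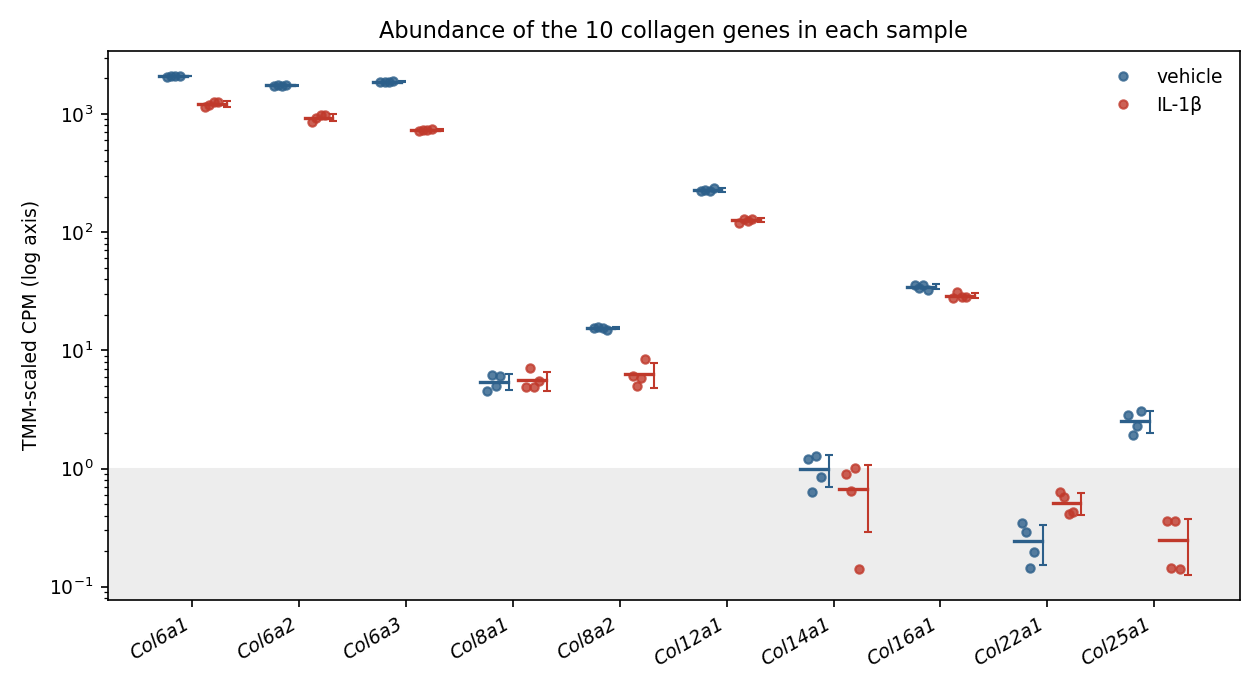
TMM-scaled CPM of the 10 genes (log axis) in 4 vehicle and 4 IL-1β samples; points are samples, horizontal lines are means and bars are SD. The type VI chains lie between 713 and 2107 CPM, and in the grey zone, below 1 CPM, lie most Col14a1 values, all Col22a1 values and the IL-1β values of Col25a1.

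Together the type VI chains took 0.572% ± 0.00356 of all counts in vehicle samples and 0.288% ± 0.0113 with IL-1β (SD, n = 4). The chains did not fall in step, which ratios within a sample show without any scaling between libraries. The log2 ratio of Col6a3 to Col6a1 counts was -0.16, -0.17, -0.15 and -0.14 in the vehicle samples and -0.67, -0.71, -0.79 and -0.76 in the IL-1β samples. This shift of -0.58 ± 0.03 (SE) exceeded the spread of both groups. By an exact permutation test its two-sided p was 0.0286, which 4 against 4 cannot go below, and 0.0357 after adjustment over 5 ratios. The ratio of Col6a3 to Col6a2 also shifted, by -0.45 ± 0.03, from 0.09 to 0.11 with vehicle to -0.41 to -0.25 with IL-1β (exact permutation test, adjusted p = 0.0357). The ratio of Col6a2 to Col6a1 moved least, by -0.13 ± 0.01, from -0.27 to -0.25 with vehicle to -0.42 to -0.37 with IL-1β, and its groups did not overlap either (exact permutation test, adjusted p = 0.0357).

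As shares of the type VI counts, Col6a1 went from 36.6% ± 0.177 to 42.3% ± 0.284, Col6a2 from 30.5% ± 0.0486 to 32.3% ± 0.567 and Col6a3 from 32.9% ± 0.186 to 25.4% ± 0.778 (SD, n = 4). Each of these shares separated the groups (exact permutation test, two-sided p = 0.0286, also after adjustment over 6 shares). The count shares show unequal change among the chains and are no measure of chain numbers in the protein, since a long transcript such as Col6a3 collects more reads.

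**Figure D3:**
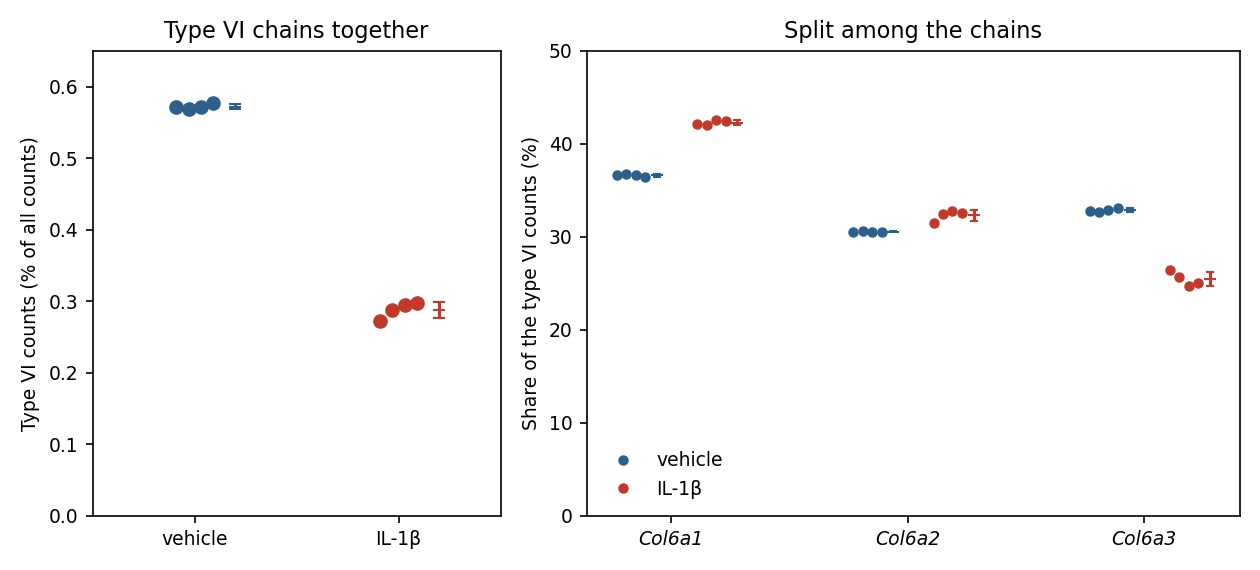
Left, counts of the type VI chains as a percentage of all counts in each sample. Right, the share of Col6a1, Col6a2 and Col6a3 in the type VI counts, with points for samples and bars for the mean ± SD (n = 4); Col6a3 falls from 32.9% to 25.4% of the type VI counts while Col6a1 rises from 36.6% to 42.3%.

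The type VIII pair parted. Col8a2 (chr4:126286793-126314330, plus strand) stood at 15.6, 15.7, 15.5 and 15.0 CPM with vehicle and 6.04, 4.98, 5.82 and 8.44 CPM with IL-1β. It fell 2.44-fold (log2 fold change -1.29, SE 0.11, adjusted p = 1.20e-10, edgeR), and IL-1β replicate 4 was the highest of its group but still below every vehicle sample. Col8a1 (chr16:57624258-57754737, minus strand) gave 4.50, 6.18, 4.99 and 6.11 CPM with vehicle and 4.87, 7.07, 4.93 and 5.46 CPM with IL-1β. The groups overlapped, and the log2 fold change of 0.04 had a 95% interval of -0.25 to 0.32 (edgeR, adjusted p = 0.872), so a 2-fold change lay outside the interval. The log2 ratio of Col8a1 to Col8a2 was -1.79, -1.34, -1.63 and -1.29 with vehicle and -0.31, 0.50, -0.24 and -0.62 with IL-1β. All IL-1β ratios were above all vehicle ratios, a shift of 1.34 ± 0.27 (SE; exact permutation test, p = 0.0286, adjusted 0.0357). These genes had 54 to 272 counts per sample, against 7916 or more for the type VI chains.

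Of the fibril-associated collagens, Col12a1 (chr9:79598991-79718831, minus strand), whose product links fibrils to the matrix around them, was the most abundant. It stood at 221, 228, 224 and 237 CPM with vehicle and 119, 129, 125 and 129 CPM with IL-1β. It fell 1.81-fold with no overlap (log2 fold change -0.86, SE 0.03, adjusted p = 1.23e-18, edgeR). Col16a1 (chr4:130047840-130099283, plus strand), a collagen with a many-times interrupted helix, gave 35.9, 33.7, 35.8 and 32.7 CPM with vehicle and 27.6, 30.9, 28.5 and 28.5 CPM with IL-1β. It had the smallest of the 7 falls that passed the test, 1.19-fold (log2 fold change -0.26, SE 0.05, adjusted p = 0.000244, edgeR), with the highest IL-1β sample at 30.9 CPM and the lowest vehicle sample at 32.7 CPM.

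Col14a1 and Col22a1 were too scarce for the filter. Col14a1 (chr15:55307750-55520803, plus strand), a relative of Col12a1, had 21, 11, 18 and 13 counts with vehicle and 10, 9, 17 and 2 counts with IL-1β. The groups overlapped, and in a fit without the filter the log2 fold change was -0.54 (95% interval -1.19 to 0.11, edgeR, adjusted p = 0.327). The log2 ratio of Col12a1 to Col14a1 was 7.84 ± 0.49 with vehicle and 7.74 ± 1.22 with IL-1β (SD, n = 4), and a shift of -0.11 ± 0.65 (SE) was not detectable at this depth (exact permutation test, p = 0.943). Without IL-1β replicate 4, where Col14a1 had 2 counts, that shift was -0.70, and without IL-1β replicate 3 it was 0.17. With 5 in place of 0.5 added to the counts it was -0.46 (exact permutation test, adjusted p = 0.286), so its size depends on that constant. Col22a1 (chr15:71795795-72034227, minus strand), known from tissue junctions such as that of muscle and tendon, had 6, 5, 2 and 3 counts with vehicle and 7, 8, 7 and 6 counts with IL-1β. On the CPM scale all IL-1β samples were above all vehicle samples. At these counts the unfiltered fit gave a log2 fold change of 0.98 with a 95% interval from -9.17e-05 to 1.96. The unadjusted p was 0.05002 and the adjusted p 0.200 (edgeR), and no change was called. Summed over samples, Col22a1 had 28 counts with IL-1β against 16 with vehicle, a ratio of 2.0. The 95% interval of that ratio, 1.05 to 3.96, covers counting error only. An antisense gene overlapped 16 bases (0.17%) of the exons of Col22a1, and no other exon overlapped these 10 genes.

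Col25a1 (chr3:130131501-130599877, plus strand) had 49, 33, 32 and 47 counts with vehicle and 4, 2, 6 and 2 counts with IL-1β. All IL-1β values lay far below the vehicle values, 0.251 ± 0.124 against 2.53 ± 0.532 CPM (SD, n = 4). Its log2 fold change of -3.29 (SE 0.32, adjusted p = 1.42e-09, edgeR), 9.78-fold lower, was the 8th lowest of the 14404. Summed over samples it was 14 counts against 161, a ratio of vehicle to IL-1β of 10.1 with a 95% interval of 5.83 to 18.8 that covers counting error only. It entered the test only through its vehicle samples, so it had to be lower with IL-1β to be listed with such a level.

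Of the 10 genes, 8 could be tested. By log2 fold change below -1 and adjusted p under 0.05, 3 of 8 were lower (Col6a3, Col8a2 and Col25a1) and 0 were higher, beside 2.35% and 2.86% of all genes tested. By adjusted p alone, 7 of 8 were lower and 0 higher, beside 19.8% and 20.4% of all genes. None was higher by edgeR at an unadjusted p under 0.05 or by DESeq2 either. The same 7 had every IL-1β sample below every vehicle sample. Of the 8 tested, 0 separated upward, and the shares over all genes tested were 18.2% and 18.7%. Col22a1, too scarce for the filter and so not among the 8, did separate upward in CPM, though no change was called for it. Since the genes were chosen with earlier results known and Col25a1 passed the filter only through its vehicle samples, these counts are a description. The median log2 fold change was -0.88 over the 8 and -0.0012 over all genes tested.

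**Figure D4:**
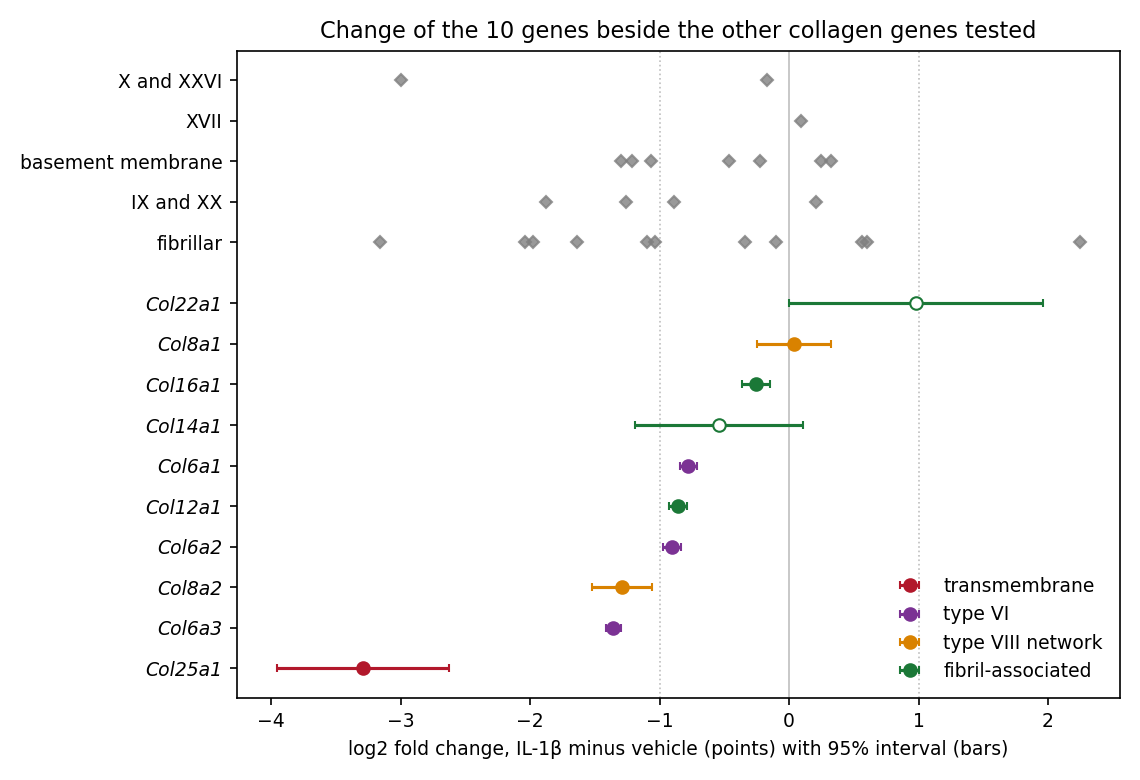
Log2 fold change of the 10 genes with 95% intervals (filled, tested; open, from the fit without a filter) and, in grey, of the other collagen genes tested, by class. Dotted lines mark 2-fold; Col25a1 lies at -3.29 and the intervals of Col8a1, Col14a1 and Col22a1 reach 0 or cross it.

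Levels between genes were compared as CPM per kb of exon. The order in vehicle samples was Col6a1 (477 ± 3.40), Col6a2 (209 ± 1.98), Col6a3 (157 ± 1.83), Col12a1 (15.0 ± 0.468), Col16a1 (5.11 ± 0.235), Col8a2 (3.44 ± 0.0708), Col8a1 (0.695 ± 0.107), Col25a1 (0.195 ± 0.0411), Col14a1 (0.142 ± 0.0435) and Col22a1 (0.0265 ± 0.0099) CPM per kb (SD, n = 4). With this length the only neighbours whose samples overlapped were Col25a1 and Col14a1. With IL-1β the first 7 genes kept this order, with 278 ± 15.2, 112 ± 7.35 and 61.3 ± 1.31 CPM per kb for the type VI chains, and Col25a1 was last at 0.0194 ± 0.00961 CPM per kb. Col14a1 and Col22a1 overlapped there, at 0.0963 ± 0.0551 and 0.0557 ± 0.0118 CPM per kb. These levels depend on the length used, which was also set to that of the longest coding transcript in place of all exons, a choice added after seeing the data. Col25a1 moved most, since its exons cover 12947 bases and that transcript 2624, and it then stood at 0.963 ± 0.203 CPM per kb in vehicle samples, overlapping Col8a1 and no longer Col14a1. With IL-1β it stood at 0.0956 ± 0.0474 CPM per kb, overlapping both Col14a1 and Col22a1, and Col22a1 was last at 0.0582 ± 0.0123 CPM per kb. Col8a2 and Col8a1 overlapped with IL-1β under this length. Col6a2 stood at 0.866 times Col6a1 in vehicle samples and 0.794 times with IL-1β, against 0.439 and 0.402 times with all exons.

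The other collagens give the comparison, as a description with no test of the difference between classes. Over all genes tested, 19.8% fell and 20.4% rose by adjusted p, and 2.35% and 2.86% did so by more than 2-fold. All 7 tested chains of types II, IX, XI and XXVII, the cartilage fibril set, fell, 6 of them by more than 2-fold, with a median log2 fold change of -1.88 against -0.88 for the 8 genes here. Col27a1 fell 8.94-fold, Col11a2 4.11-fold, Col2a1, the main chain of the cartilage fibril, 3.94-fold and Col11a1 3.11-fold. The 6 chains of types I, III and V divided into 3 that fell and 2 that rose, with a median of -0.22, and Col5a3 rose 4.74-fold, from 1.63 ± 0.725 to 7.61 ± 1.03 CPM. Of 7 tested chains of types IV, XV and XVIII, 4 fell and 2 rose, with a median of -0.46, and Col15a1 (2.45-fold), Col4a6 (2.32-fold) and Col4a5 (2.09-fold) fell past 2-fold. Among 44 collagen genes in the table, the 10 genes took 26.5% ± 0.18 of the counts with vehicle and 34.3% ± 0.639 with IL-1β (SD, n = 4; exact permutation test, two-sided p = 0.0286, also after adjustment over 6 shares). The type VI chains made up 95.2% ± 0.06 of the counts of the 10 genes with vehicle and 94.5% ± 0.2 with IL-1β (SD, n = 4). The share is thus mostly that of type VI and says little of the other genes. It rose while 7 of the 10 genes fell, and the collagen total includes Col2a1, which went from 11190 to 2844 CPM.

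Relatives outside the 10 genes included type IX. Col9a1, a fibril-associated chain on the cartilage fibril, fell 3.67-fold, from 276.5 ± 5.76 to 75.3 ± 3.47 CPM (log2 fold change -1.88, adjusted p = 1.52e-26, edgeR), and Col9a3 fell 2.4-fold, from 183 ± 1.25 to 76.3 ± 3.92 CPM (adjusted p = 2.67e-22). Of 4 other fibril-associated collagens tested, 3 fell by adjusted p, beside 19.8% of all genes tested, and the other was not called. None of the 4 other type VI and type VI-like genes in the list passed the filter, with a summed level of 0 to 0.526 CPM in vehicle samples. The other transmembrane collagens gave 1 tested gene, which was not called in either direction. Col10a1, the hypertrophic cartilage collagen, which forms networks as type VIII does, fell 7.98-fold, from 101 ± 4.16 to 12.6 ± 0.983 CPM (adjusted p = 9.44e-27).

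Receptors and binding partners of these collagens were mostly lower. Of 22 tested, 15 fell and 4 rose by adjusted p, 8 fell and 2 rose by more than 2-fold, and the median log2 fold change was -0.49. Matn1 and Matn3, matrilins that bridge type VI microfilaments to fibrils, fell 6.91-fold (log2 fold change -2.79, SE 0.08) and 3.23-fold (log2 fold change -1.69, SE 0.13), respectively. Comp, a pentameric glycoprotein of the fibril surface, fell 5.03-fold and Fmod, a fibril-binding proteoglycan, fell 4.26-fold. Matn1 and Comp also stand in the chondrocyte marker list. Dcn, a small proteoglycan that binds type VI and fibrillar collagen, rose 2.86-fold, from 264 ± 10.5 to 755 ± 4.11 CPM (log2 fold change 1.52, SE 0.03), and Antxr1, a collagen-binding cell surface receptor, rose 2.31-fold (log2 fold change 1.21, SE 0.04). Cspg4, a membrane proteoglycan that binds type VI and was named after its values were seen, fell 2.00-fold, from 819 ± 29.4 to 409 ± 21.5 CPM. The adjusted p-values of Dcn, Antxr1 and Cspg4 were 6.32e-25, 2.19e-19 and 1.71e-19 (edgeR).

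**Figure D5:**
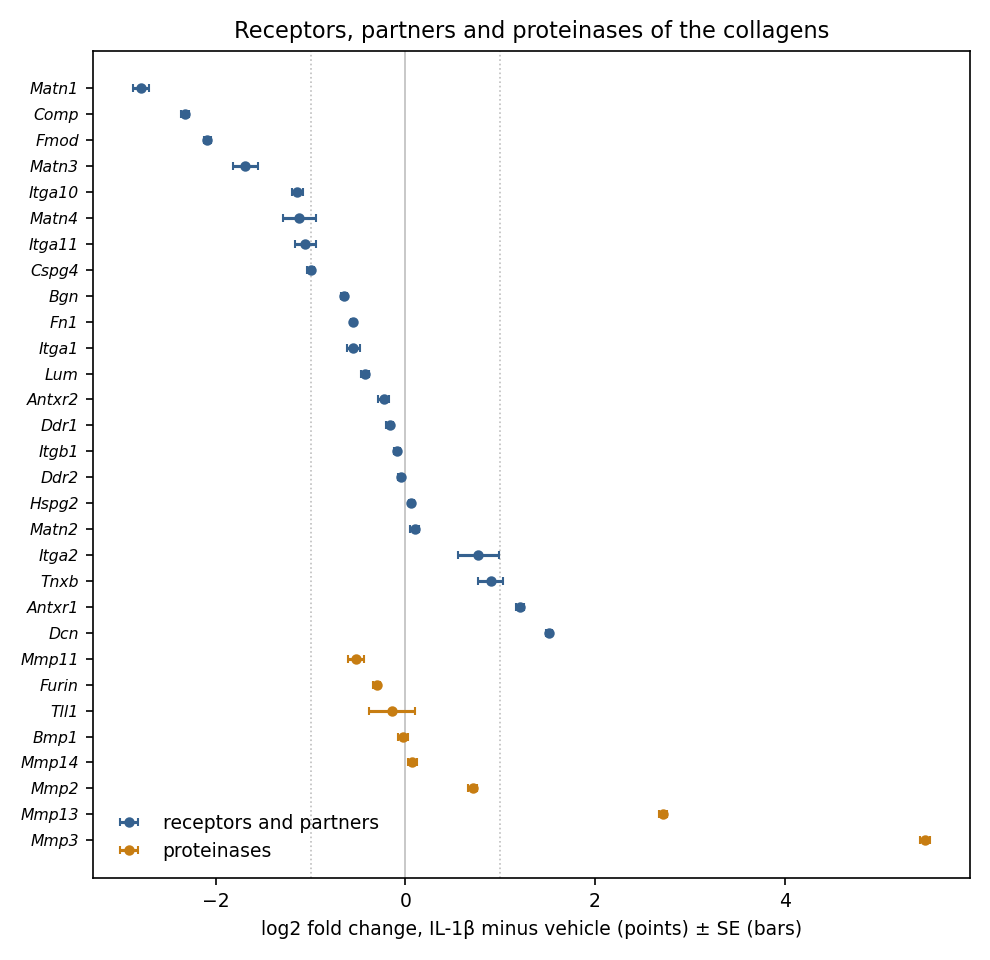
Log2 fold change ± SE of the 22 receptors and partners (blue) and of the 8 proteinases tested (orange), in order of value within each list. Dotted lines mark 2-fold; Matn1, Comp, Fmod and Matn3 are the lowest and Mmp3 and Mmp13 the highest.

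Of 8 tested proteinases, listed as possible processors or cutters of these chains, 3 rose and 2 fell by adjusted p. Over all genes tested, 20.4% rose and 19.8% fell. By more than 2-fold 2 of the 8 rose, beside 2.86%, and their median log2 fold change was 0.02. Whether any of the 8 acts on these chains in the cultures was not tested. Mmp3, stromelysin, rose 44.8-fold, from 23.6 ± 1.47 to 1055 ± 69.0 CPM, and Mmp13, a collagenase, rose 6.57-fold, from 32.1 ± 2.10 to 211 ± 4.94 CPM. Their log2 fold changes were 5.48 (SE 0.05, adjusted p = 1.12e-33) and 2.72 (SE 0.04, adjusted p = 1.02e-28, edgeR).

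The series was built around miR-146a-5p, and miR-29a-3p is a known regulator of collagen transcripts, so the sites of both in the 10 transcripts are shown. The miRNAs themselves are not part of the count table. Their mature sequences (RefSeq, GRCm38.p6) are given with the seed, bases 2 to 8, in capitals; the seeds differ.
miR-146a-5p (chr11:43374435-43374456, minus strand): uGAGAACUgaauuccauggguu
miR-29a-3p (chr6:31062673-31062694, minus strand): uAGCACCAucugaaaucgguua
The site of miR-146a-5p, AGTTCTC, was found in the 3′ UTR of 1 of the 10 genes, Col12a1 (bases 1768 to 1774 of 2178), beside 11.2% of 11958 genes tested that had an annotated 3′ UTR. The site of miR-29a-3p, TGGTGCT, was in 5 of 10 (Col6a2, Col6a3, Col8a1, Col16a1 and Col22a1), beside 14.3% of those genes. Those genes passed the CPM filter, whereas the 10 include Col14a1 and Col22a1, which did not. The 3′ UTR of Col22a1 is 3538 bases long, and a long one has more room for a match. Capitals below mark the match, with the A that makes an 8mer where it follows.
Col12a1, miR-146a-5p site: ctcactgcagcAGTTCTCccttctttcctt
Col6a2, miR-29a-3p site: catcccatctgTGGTGCTAataggacccta
Col6a3, miR-29a-3p site: acctgtcaataTGGTGCTAaatgtgtctat
Col8a1, miR-29a-3p site: atattctaccaTGGTGCTAatatcagagct
Col16a1, miR-29a-3p site: tggggttccccTGGTGCTgca
Col22a1, miR-29a-3p site at bases 659 to 665: gtggttatcctTGGTGCTtcaggctaccag
Col22a1, miR-29a-3p site at bases 740 to 746: tatgaacaagcTGGTGCTgaagaagagttc
Of the 5 genes with a miR-29a-3p site, Col6a3 fell 2.56-fold, Col6a2 fell 1.87-fold and Col16a1 fell 1.19-fold. Col8a1, with a log2 fold change of 0.04, and Col22a1, with 2 sites and a log2 fold change of 0.98 in the unfiltered fit, were not called. Col6a1, Col8a2, Col14a1 and Col25a1 had a site for neither miRNA in the annotated 3′ UTR, which for Col25a1 was only 30 bases long, against a median of 1002 bases over the genes searched. The matches are letters in the transcript, and whether either miRNA acts on them was not tested.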

How the data were processed

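RNA-Seq counts of 8 samples, grouped by the treatment in their labels, were used. The authors trimmed reads with cutadapt, aligned them to mm10 (GENCODE vM20) with STAR and deposited whole-number counts per gene symbol from featureCounts. The sources used here differ on the STAR version, and whether the counts precede or follow the RUVseq batch correction that the methods name is not given in them. A length in bases for each gene (unit: other), deposited in the same table, served for CPM per kb.

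Counts were scaled by TMM and tested with edgeR 4.0.16 (limma 3.58.1, R 4.3.3), quasi-likelihood, with no term but treatment, on 14404 genes that passed a CPM of 1 in 4 samples or more. P-values were adjusted by Benjamini-Hochberg over all genes, with thresholds of 0.05 and a log2 fold change of 1. Standard errors refer to log2 fold changes. Ratios used log2 of counts plus 0.5 and exact permutation tests over samples, two-sided, in scipy 1.17.1. Numpy 2.4.6, pandas 2.3.3, Biopython 1.88 and matplotlib 3.10.9 (Python 3.11.15) served for the rest. The code was tested on simulated data. Total counts of 10992355 to 17456063 put 3 counts, the floor, at 0.172 to 0.273 CPM, and intervals on counts cover counting error only.

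Positions, transcripts and 3′ UTRs came from GENCODE vM21 (GRCm38), whose total exon lengths equalled the deposited lengths for all 10 genes, and miRNA and upstream sequences from RefSeq, which held windows for 7 of 10. The NF-κB consensus was searched by its usual degenerate form, on both strands as the other motifs. Within groups, pairs of samples differed by more than sampling noise (chi-square per degree of freedom 1.98 to 6.34). Same-numbered samples did not deviate together (correlations -0.07 to 0.04), so no replicate block was used. Alternatives were DESeq2, other scalings and filters, a replicate block, 1 factor of unwanted variation, a test against 2-fold and leaving out each replicate. For the ratios, 5 in place of 0.5 was also added to the counts.

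The genes and lists were chosen with earlier results of these data known. All 10 genes were named, and from each list the genes past both thresholds, at most 4 in each direction by size, with the fibrillar and basement membrane lists described under their collagen types. Marker lists are given as counts and ranges, and Pdgfra, Scx, Mkx and Lyz2 were named after their values were seen. The miRNA-Seq, qPCR, in vivo and human samples were not analysed here.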

Additional observations from a re-analysis of the deposited data

Results flagged for a closer look

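Of 32 groups of 4 values compared, 2 held a sample that stood apart from the other 3, where 1.6 would be flagged by chance at 1 in 20. Both were log2 ratios of Col6a2 to Col6a1. IL-1β replicate 1, the library with the fewest counts, was at -0.42 while the others of its group lay between -0.38 and -0.37. Vehicle replicate 4 was at -0.25 while the others lay at -0.27 to -0.26. In both cases the distance was small beside the shift of -0.13 between the groups.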

How the results depend on the processing

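The 10 genes gave 3 falls of more than 2-fold in the main test and 2 to 3 over the alternatives. The count was 2 with CPM above 1 in all 8 samples, which removed Col25a1, and 2 when the test was made against 2-fold, where Col8a2 had an adjusted p of 0.0623 (edgeR's glmTreat) and Col6a3 and Col25a1 kept 2.02e-12 and 1.49e-06. By adjusted p alone 6 to 7 fell, and 0 rose in every fit run, of which DESeq2, other scalings, no filter and 1 factor of unwanted variation gave 7 falls. The median log2 fold change was -0.82 without a filter on low counts, over 10 genes in place of 8, and -0.90 to -0.85 with 1 replicate left out. The log2 fold change of Col8a1 ran up to 0.107 without vehicle replicate 2 and was -0.096 without IL-1β replicate 2, -0.054 without vehicle replicate 1 and -0.00039 without vehicle replicate 3, which has no bearing on a call since none was made.

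With 1 replicate left out, the shifts of the log2 ratios were -0.131 to -0.116 (Col6a2 to Col6a1), -0.598 to -0.558 (Col6a3 to Col6a1), -0.482 to -0.430 (Col6a3 to Col6a2) and 1.12 to 1.496 (Col8a1 to Col8a2). The exact test cannot go below 0.0571 with 4 against 3, and the adjusted p was 0.0714 in all of these, so it says nothing about stability. The shift for Col12a1 to Col14a1 ran from -0.70 to 0.17, and was 0.149, 0.169 and 0.0875 without IL-1β replicate 1, IL-1β replicate 3 and vehicle replicate 2. With 5 added to the counts in place of 0.5 and all samples kept, it was -0.457, and that for Col8a1 to Col8a2 was 1.30. With the replicate number as a block, sign flips over 4 pairs cannot go below 0.125, and the shifts of -0.126, -0.577, -0.451 and 1.34 had an adjusted p of 0.156. The block in edgeR left the counts at 3 and 7 falls and moved no call of these genes. Over all 14404 genes, 339 fell by more than 2-fold in the main test and 175 did in the test against 2-fold, a threshold stricter by construction, against 571 of 32379 without a filter. Depth limits Col14a1, Col22a1 and the IL-1β level of Col25a1, with at most 21 counts in each of these samples.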

Other observations

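The spread between samples of the type VI chains was wider with IL-1β than with vehicle. The coefficient of variation of CPM was 5.46% against 0.713% for Col6a1, 6.56% against 0.947% for Col6a2 and 2.14% against 1.16% for Col6a3. Col8a2 had 23.5% with IL-1β and 2.06% with vehicle, and Col12a1 3.9% and 3.13%. The values were 4.87% and 4.6% for Col16a1, 18.4% and 15.3% for Col8a1, 57.2% and 30.6% for Col14a1 and 49.6% and 21.1% for Col25a1. Col22a1 went the other way, with 21.1% and 37.4%. Fewer counts carry more counting error, and Col8a2 had 67 to 119 counts with IL-1β against 217 to 272 with vehicle. The part of counting error in these spreads was not tested. Differences in spread were not tested with 4 samples a group.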
